A study of Mus musculus with 4 samples.

Results

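Principal 2 is a population of caput principal cells, and it comprised 353 of the 8880 single cells in the data and 353 of the 3956 principal cells. Its members are the cells that the authors' deposited annotation places in 1 subcluster, and no cell was added, removed or re-clustered here. All 353 came from the caput library, where they made up 24.6% of 1433 cells and 48.0% of the 736 principal cells. The cells came from male FVB/NJ mice aged 10 to 12 weeks, for which no treatment or engineered allele is described. The 8 epididymides of 4 mice were cut into pieces approximating caput, corpus, cauda and vas deferens, sperm were washed out, and the 8 pieces of each region were dissociated as 1 pool with collagenase and trypsin. The study made 1 droplet library from each pool and read the 3' ends of its transcripts, so that there are 4 libraries, 1 sample per region, no replicate and no test between groups. The caput was not divided further, and the proximal position in the name of the population therefore cannot be read from the libraries.

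The epididymis is a long coiled duct in which sperm that leave the testis mature and are stored. Principal cells are the main absorptive and secretory cells of its lining, and they secrete beta-defensins, lipocalins, cystatins, protease inhibitors and other proteins into the lumen in an order that changes along the duct. The first stretch of the caput depends on factors that arrive in the fluid from the testis, called lumicrine factors, and on androgen. Principal 2 is compared most closely with principal 1 (144 cells) and principal 3 (151 cells), which also came from the caput library alone. In the authors' first round of clustering, 352 of the principal 2 cells lay in 1 cluster of 652 cells and 1 in another.

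Principal 2 gave 844143 UMIs (unique molecular identifiers, each counting 1 captured RNA molecule) after the authors' removal of ambient RNA, which took 5.70% of them. The cells held a median of 924 UMIs and a range of 206 to 14577, and the 168 cells with at least 1000 UMIs held 90.6% of the UMIs. Principal 1 gave 510136 UMIs (median 1613) and principal 3 gave 166278 UMIs (median 565). Levels below are UMIs of a gene summed over the cells of a population per 1000000 of its UMIs (UPM). A UMI counts a transcript by its 3' end, and levels were not divided by transcript length. The brackets give exact 95% intervals, which cover counting error and neither animals nor dissections. A count of 3 UMIs was taken as the floor for ratios, which is 3.55 UPM in principal 2, 5.88 in principal 1 and 18.0 in principal 3. The populations were built from these same counts, so that differences between them are descriptions and are not independent evidence. Across all libraries 43 cell barcodes occurred more than once, 3 of them in principal 2.

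The genes that name the population are Lcn9, which encodes an epididymal lipocalin of the family that carries small hydrophobic molecules, Defb48, a beta-defensin, and Cst12, a member of the cystatin family of cysteine protease inhibitors. Lcn9 lies on chromosome 2 (25823153 to 25825537, plus strand), Cst12 on chromosome 2 (148789361 to 148793546, plus strand) and Defb48 on chromosome 14 (62977524 to 62984510, minus strand) of GRCm38. Each shares its chromosome with a relative that was also abundant in the caput. Lcn8 is at 25653120 to 25656217 and Cst11 at 148768609 to 148771497 on chromosome 2, and Defb47 is at 62998077 to 63001160 on chromosome 14. The 250 bases before the transcription start of each marker are shown because all 3 genes were far lower in principal 3 than in principal 2. They are RefSeq sequences of GRCm38.p6 on the strand of the gene, and all 3 markers had an entry. Capitals mark AGAACA, a hexamer of the androgen response element, in either orientation (TGTTCT on the other strand).
Defb48, chr14:62984511-62984760, minus strand: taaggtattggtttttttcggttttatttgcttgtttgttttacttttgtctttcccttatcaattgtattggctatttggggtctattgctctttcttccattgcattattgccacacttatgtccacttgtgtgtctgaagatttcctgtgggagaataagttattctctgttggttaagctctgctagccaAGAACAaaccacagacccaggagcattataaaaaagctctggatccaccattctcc
Lcn9, chr2:25822903-25823152, plus strand: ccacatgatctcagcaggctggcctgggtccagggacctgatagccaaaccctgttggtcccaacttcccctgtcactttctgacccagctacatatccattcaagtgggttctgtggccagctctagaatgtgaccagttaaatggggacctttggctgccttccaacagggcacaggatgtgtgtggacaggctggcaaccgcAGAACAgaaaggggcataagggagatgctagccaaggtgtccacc
Cst12, chr2:148789115-148789364, plus strand: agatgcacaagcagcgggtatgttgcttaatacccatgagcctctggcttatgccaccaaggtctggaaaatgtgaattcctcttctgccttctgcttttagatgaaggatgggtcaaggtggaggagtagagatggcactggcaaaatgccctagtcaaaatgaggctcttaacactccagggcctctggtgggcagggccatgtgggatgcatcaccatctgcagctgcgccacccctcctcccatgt
The hexamer occurred 1 time before Defb48, 1 time before Lcn9 and 0 times before Cst12, and 16.1% of the 32851 promoter windows of this length hold it. The 6 bases AGGAAG, the core bound by PEA3 factors such as Etv4 and Etv5, occurred in none of the 3 windows on either strand, against 29.5% of all windows.

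Of the 3 naming markers, Defb48 was highest in principal 2, and Lcn9 and Cst12 were somewhat higher in principal 1. Defb48 reached 2931 UPM (2816 to 3049) in principal 2, 1898 in principal 1 and 126 in principal 3, which is 1.54 (1.43 to 1.67) times the level of principal 1 and 23.2 (15.1 to 37.6) times that of principal 3. Lcn9 had 3675 UPM (3547 to 3806) in principal 2, 4344 in principal 1 and 180 in principal 3. Cst12 had 2285 UPM (2184 to 2389) in principal 2, 2505 in principal 1 and 54.1 in principal 3. The 3 genes therefore set principal 2 apart from principal 3 and from every later population, where none exceeded 34.8 UPM. Lcn9 and Cst12 did not mark it off from principal 1 by a higher level, and Defb48 did so by less than 2-fold. Lcn9 stayed below principal 1 under every scaling tried (ratios of 0.641 to 0.878), Defb48 stayed above it (1.17 to 1.73), and Cst12 ranged from 0.691 to 1.46. Against principal 3 the ratios ranged over the scalings from 5.11 to 120 for Defb48, from 7.15 to 38.9 for Lcn9 and from 29.5 to 90.7 for Cst12, all above 1. Of the other genes tied to the population, Defb1 had 7.84 UPM in principal 1 and 156 in principal 2 but was highest in principal 7, and Mettl7a1, a methyltransferase-like gene, stood at 827, 839.9 and 799.9 UPM in principal 1, 2 and 3.

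**Figure D1:**
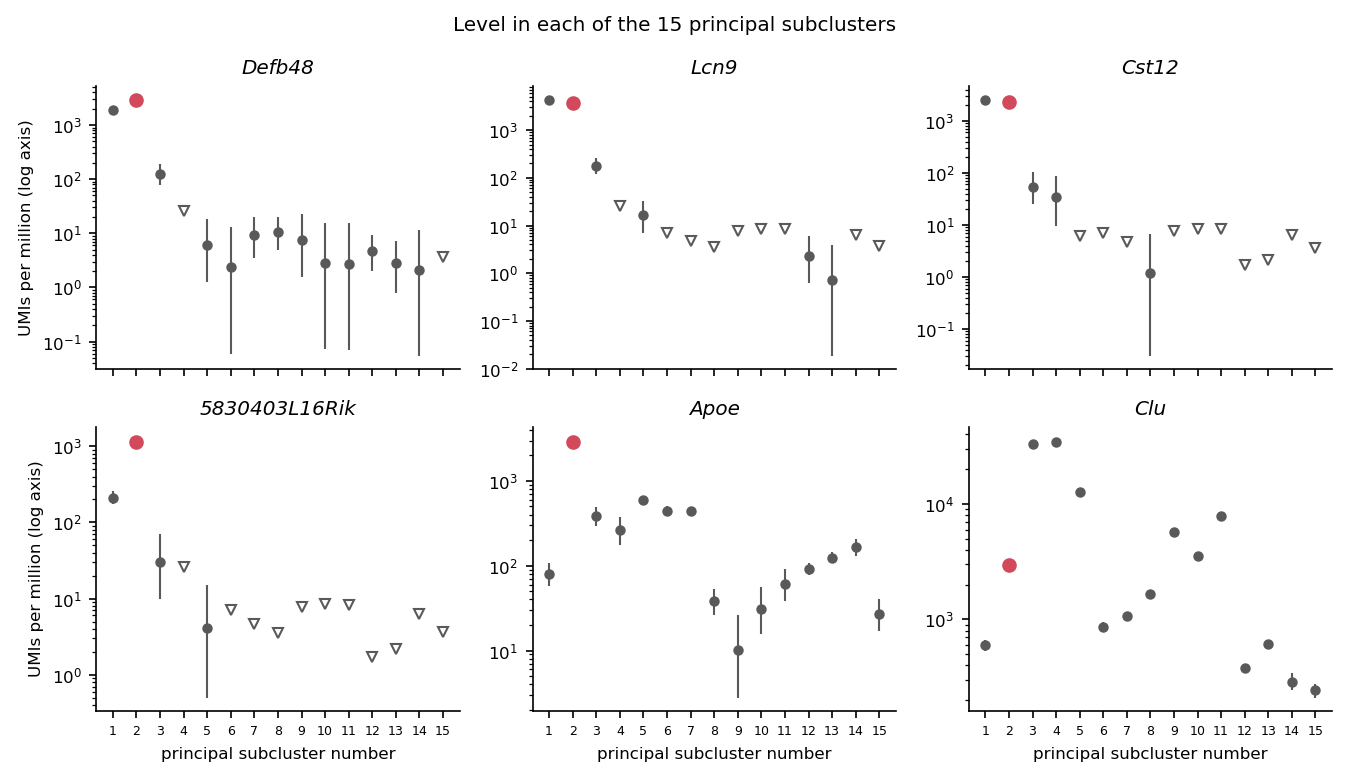
Level of 6 genes in each of the 15 principal subclusters, in UMIs per 1000000 UMIs on log axes. Points carry exact 95% Poisson intervals, principal 2 is red, and open triangles mark a count of 0, drawn at the floor of 3 UMIs. Defb48, Lcn9 and Cst12 are high in principal 1 and 2, 5830403L16Rik and Apoe peak in principal 2, and Clu rises from 596 in principal 1 through 2962 in principal 2 to 32879 in principal 3.

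Fewer than all principal 2 cells carried the markers. To compare cells at equal depth, 1000 UMIs were drawn from each of the 168 cells that had as many, and 185 shallower cells were set aside. Lcn9 then had a UMI in 51.8% of cells (44.0 to 59.5), Defb48 in 42.3% (34.7 to 50.1) and Cst12 in 19.0% (13.4 to 25.8). In principal 1 (82 cells) the shares were 67.1%, 20.7% and 15.9%, and in principal 3 (45 cells) they were 6.67%, 2.22% and 0%, where 0 of 45 cells allows a share of cells with a UMI of up to 6.67% by the rule of 3 counts and 7.87% by the Clopper-Pearson interval. Caput basal cells, which should lack the genes, had shares of 2.90%, 2.90% and 1.66% over 241 cells, and the principal 3 shares of Lcn9 and Defb48 had intervals that contain these values. The median depth was 5526 UMIs in the basal cells. Without thinning, principal 2 had 38.5%, 29.5% and 16.4%. Of the 168 cells, 28 carried all 3 markers, 43 carried 2, 20 carried 1 and 77 carried none. Defb48 and Lcn9 met in 68 cells, 95.8% of the Defb48 cells and 78.2% of the Lcn9 cells. Cst12 was concentrated further, since 20 of the 168 cells had at least 10 thinned UMIs and held 456 of 514, and the 10 cells with the most UMIs of it held 65.6% of its UMIs in the whole population.

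Few genes were called as highest in principal 2 by a wide margin. Of 5111 genes with at least 20 UMIs in it, 745 (14.6%) had their highest level there among the 15 principal subclusters, and 21 (0.411%) were at least 2-fold above every other. The count was 16 to 27 when shallow cells, called doublets or vas deferens populations were left out, but 46 with every cell weighted equally, 5 with the deposited size factors, 4 without the 50 highest genes in the denominator and 89 among the 4 principal populations with at least 50 caput cells. A gene below 2 times the principal 4 floor of 26.1 UPM could not lead, although the 5111 genes begin at 20 UMIs. The sparsest genes were therefore left out by the rule. In simulated counts the rule called 38 of 66 genes raised 3-fold in principal 2. The raised genes were drawn from the less sparse ones, with the same base profile in every population. That count therefore says nothing about sparse genes. The pair that passed 4-fold was 5830403L16Rik and Apoe. 5830403L16Rik, a gene known by a clone name, reached 1121 UPM in principal 2, against 212 in principal 1 (a ratio of 5.29, 4.33 to 6.52), 30.1 in principal 3 and 4.13 in principal 5, the highest of the later populations. It had 0 UMIs in caput clear cells and 4.27 UPM in caput basal cells. Thinned, it was in 46 of 168 principal 2 cells (27.4%) against 4.88% of principal 1 cells, and 42 of those 46 also had Defb48. Of the 46 cells, 8 had at least 10 thinned UMIs of it and held 165 of 282. Aldh1a7, an aldehyde dehydrogenase of the retinal dehydrogenase subfamily, had 328 UPM against 137 and 120 in principal 1 and 3 (2.39 times principal 1, 1.83 to 3.15), Khk, which phosphorylates fructose, had 123 against 54.9 in principal 1, and Mif, a cytokine-like tautomerase, had 412 against 189.9 in principal 5. Mif also had 457 UPM in caput basal cells and 1135 in caput clear cells.

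Apoe, the lipid-carrying apolipoprotein, was the most abundant of the 21 with 2900 UPM in principal 2, 80.4 in principal 1, 385 in principal 3 and 597 in principal 5, so that principal 2 had 4.86 (4.30 to 5.51) times the next level. Apoe, Krt15, a basal keratin (105 UPM, next 34.2), and Igfbp7, an insulin-like growth factor binding protein (213 UPM, next 106), were higher still in caput basal cells, with 29909.6, 776 and 4163 UPM. The basal list of 5 markers (Krt5, Krt14, Trp63, Itga6 and Adm) summed to 149 UPM in principal 2, 47.0 in principal 1, 42.1 in principal 3 and 3893 in caput basal cells. Of the 6 muscle and stromal markers, whose sum was 122 UPM against 7.84 in principal 1 and 72.2 in principal 3, only Col1a1 was at 0. Clear cell markers summed to 54.5 UPM (27.4 and 72.2 in principal 1 and 3), endothelial markers to 62.8 (74.5 and 18.0) and sperm markers to 1.18 (7.84 and 0). Of the 6 immune markers, Lyz2, Csf1r, Cd3e and C1qa were at 0 in principal 2 and the sum was 50.9 UPM. The 10 cells with the most Apoe held 53.6% of its UMIs in the population and had 838 UPM (606 to 1128) of the basal markers, against 59.9 (41.9 to 82.9) in the 278 cells without Apoe, and 2 of those 10 were called doublets. They had 48659 UPM of Gpx5, near the 51572 of the cells without Apoe. Leaving out every cell with a UMI of a basal or stromal marker, 98 in principal 2, 25 in principal 1 and 18 in principal 3, kept 255 principal 2 cells, in which Apoe fell to 772 UPM and 2.04 times the next population, Krt15 to 1.01 times, Igfbp7 to 0.737 times and Rrad, of which the 10 richest cells held 80.8% and which had 640 UPM in caput basal cells, to 0.431 times, while 5830403L16Rik stood at 998 UPM and 24.6 times and Aldh1a7 at 2.16 times. The part of basal cell RNA in these levels was not tested. In the 255 cells kept, 5830403L16Rik was below its 1121 UPM in all principal 2 cells. Its ratio rose from 5.29 through a lower level in principal 1, where 25 cells were left out.

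The remaining leading genes were sparse. Iqcd (68.7 UPM), Kiss1, which encodes the kisspeptin precursor (64.0 UPM), Clec2l, a C-type lectin (62.8 UPM), and Rrad, a small GTPase (61.6 UPM), each had 0 UMIs in principal 4, and their levels were at least 2.36-fold higher than its floor of 26.1 UPM. 1700019D03Rik (61.6 UPM) and Mpp2, a membrane scaffold protein (56.9 UPM), had 1 UMI in principal 4, and the intervals of their ratios ran from 1.22 to 285 and from 1.12 to 264. Principal 4 gave 115021 UMIs in all. Zxdc, a zinc finger gene, had 67.5 UPM. Mmp14, a membrane metalloprotease, and Serpinb6a, a serine protease inhibitor, had 62.8 UPM each and intervals that reach below 1 against principal 3. Clec2l was higher in caput clear cells (171 UPM, 125 to 229) than in principal 2, but lower in caput basal cells (3.56 UPM). Mmp14 was higher in both, with 129 UPM in basal and 114 in clear cells. Iqcd (0.712 and 3.80 UPM) and Kiss1 (4.27 and 7.59 UPM) were lower in both. Over the whole set of 21, the interval of the ratio to the next population lay above 1 for 19 genes and above 2 for 3. Just below the threshold were Slc25a44 at 1.998-fold, Caskin2 at 1.99-fold and Wipf3 at 1.99-fold.

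The abundant genes of principal 2 were shared with its neighbors. The 15 highest held 22.2% of its UMIs, 39.5% of those in principal 1 and 23.3% of those in principal 3. Gpx5, a secreted glutathione peroxidase that protects sperm from peroxide, led with 54421 UPM in principal 2, below 71702 in principal 1 and 97566 in principal 3. Spag11b, a defensin-like protein that binds sperm, followed with 38546 UPM, again below 61182 and 75759 in principal 1 and 3. Defb20 had 30898 UPM against 95126 and 22492. Crip1, a LIM domain protein (12183 UPM), the metallothionein Mt1 (8739), Rpl41 of the large ribosomal subunit (7219) and Tmsb4x, which binds actin (5821), reached higher levels in later populations. Defb47 (11819 UPM), Lcn8 (10832), Cst11 (9243), 9230104L09Rik (7445) and Teddm1 (5494) were lower in principal 2 than in principal 1 and 9.73 to 59.0 times higher than in principal 3. Defb42 (6632 UPM), the sperm surface protein gene Adam7 (6511) and Clpsl2 (5876), a colipase-like gene, differed less than 2-fold between all 3 populations.

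Across genes, the profile of principal 2 was most like that of principal 1. Over the 5111 genes, Spearman's rho was 0.868 with principal 1, 0.746 with principal 3, 0.724 with principal 5 and 0.523 to 0.662 with the others, as a description across genes that share libraries and differ in depth. Against principal 1, 988 of 5117 genes with at least 20 UMIs in either population (19.3%) were at least 2-fold higher in principal 2 and 18 (0.352%) at least 2-fold higher in principal 1. The balance moved with the scaling. The median log2 ratio was 0.33 over the 2571 genes with 20 UMIs in both, and beta-defensins and Spag11 genes took 23.6% of the UMIs in principal 1 and 10.8% in principal 2. With ratios centered on that median the counts were 519 and 50, and with the 50 highest genes taken out of the denominator they were 453 and 74 (86.0% of calls higher in principal 2, against 98.2%).

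Of the 10 genes with the largest ratio of principal 2 to principal 1, 2 were beta-defensins that were higher still in principal 3, and the other 8, Apoe and Krt15 among them, were higher still in caput basal cells. Defb15, a beta-defensin, had 457 UPM in principal 2, 11.8 in principal 1 and 5683 in principal 3, and the 10 richest cells held 69.2% of it. Defb12 had 91.2 UPM, 0 UMIs in principal 1 and 421 UPM in principal 3, 15.5-fold higher in principal 2 than in principal 1 set at the floor of 3 UMIs, and the lower bound of the interval of the ratio was 12.3. Hspb1, a small heat shock protein, had 338 UPM against 9.80 in principal 1 and 108 in principal 3, a ratio to principal 3 of 3.12 that ranged from 0.757 to 4.58 over the scalings. Tmsb10 (162 UPM), Sparc, a matrix protein (120 UPM), S100a6, a calcium-binding protein (114 UPM), and Cxcl1, a chemokine (72.3 UPM), rested on 1 to 3 UMIs in principal 1, and the lower bounds of their ratios were 6.37 to 11.2. Defb1, at 19.9 times its principal 1 level (7.61 to 74.3) and 5.26 times with every cell weighted equally, completes the 10. In caput basal cells Hspb1 had 2809.9 UPM, S100a6 1906, Defb1 1398, Sparc 1293, Tmsb10 1250.0 and Cxcl1 1088, and Defb1 had a UMI in 64.3% of thinned basal cells against 11.3% of principal 2 cells. Caput clear cells were also above principal 2 for Tmsb10 (1249 UPM), Defb1 (1188), Hspb1 (888) and S100a6 (831). They were below it for Apoe (60.7 UPM), Cxcl1 (30.4), Sparc (3.80) and Krt15 (3.80). Without every cell that had a UMI of a basal or stromal marker, and with principal 1 set to at least 3 UMIs, the ratio to principal 1 was 7.97 for Hspb1, 5.80 for Defb1, 4.83 for Sparc and 3.14 for S100a6 and Cxcl1, against 38.9 for Defb15, 18.4 for Tmsb10 and 13.5 for Defb12.

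Few genes were lower in principal 2 than in principal 1. Defb47 had 11819 UPM in principal 2 and 52059 in principal 1, a 4.41-fold difference (4.30 to 4.51). Defb20 was 3.08-fold and Ly6g5c, a Ly6 family gene (2066 against 6734 UPM), 3.26-fold higher in principal 1. 9230110F15Rik had 2318 against 5240 UPM, and Lcn6, Cst8 and Cst11 were also among the 18. Rbfox3, Tmem252, Tstd1, Ikzf5, Kank1 and Dapl1 complete the 10 with the largest ratios and had 17.8 to 101 UPM in principal 2.

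Against principal 3, 1250 of 5116 genes (24.4%) were at least 2-fold higher in principal 2 and 141 (2.76%) at least 2-fold higher in principal 3. Principal 3 was shallow, and when the UMIs of principal 2 were drawn down to its total the counts were 514 and 164, so that the share of calls on the side of principal 2 was 75.8% in place of 89.9%. It was 68.5% (498 and 229) without the 50 highest genes in the denominator. Actg2, a smooth muscle actin gene, had 817 UPM in principal 2 and 849 in principal 1 but 0 UMIs in principal 3, 45.3-fold higher in principal 2 than in principal 3 set at the floor of 3 UMIs, with a lower bound of 36.7 for the interval and a range of 32.7 to 45.3 over the scalings. 9230104L09Rik was 59.0-fold (38.5 to 95.3), Cst12 42.2-fold, 9230110F15Rik 38.5-fold and 5830403L16Rik 37.3-fold higher. Over the scalings 9230104L09Rik ranged from 14.8 to 223, 9230110F15Rik from 11.1 to 69.9 and 5830403L16Rik from 25.4 to 45.7. Rnase10, a ribonuclease A family member that principal 1 and 2 shared (1882 and 1693 UPM), was 31.3-fold higher than in principal 3, and Adam28, Enpp2, Mrpl37 and Teddm1 were 23.4- to 28.9-fold higher. With every cell weighted equally these ratios were 6.44 for Rnase10, 10.5 for Adam28, 5.94 for Enpp2, 7.72 for Mrpl37 and 10.0 for Teddm1, and in cells with at least 1000 UMIs that of Mrpl37 was 63.8.

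Several abundant genes of principal 3 were low in principal 2. Lcn5, which binds retinoic acid, had 2202 UPM in principal 2 against 34358 in principal 3, 148338 in principal 4 and 572 in principal 1. Spink11, a Kazal-type protease inhibitor, had 1096 UPM against 23665 in principal 3 (21.6-fold, 20.1 to 23.2) and 188 in principal 1. Clu, the extracellular chaperone clusterin, had 2962 UPM against 32879 and 596. Gm6792 (131 UPM), Spink2 (118 UPM), Serpina1f (17.8 UPM), Rnase9 (192 UPM), Defb30 (461 UPM), Rnase13 (21.3 UPM), the sperm-binding protein gene Bsph1 (117 UPM) and AY761185 (409.9 UPM) were 15.0 to 41.0 times higher in principal 3. With every cell weighted equally the ratios of principal 2 to principal 3 were 0.267 for AY761185, 0.240 for Lcn5, 0.215 for Serpina1f, 0.193 for Defb30, 0.149 for Spink11 and 0.145 for Rnase9, all still below 1. Of these genes, Bsph1 and Rnase13 had intervals of the ratio of principal 2 to principal 1 that contain 1 (lower bounds of 0.814 and 0.896), and the intervals of the others lay above 1.

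**Figure D2:**
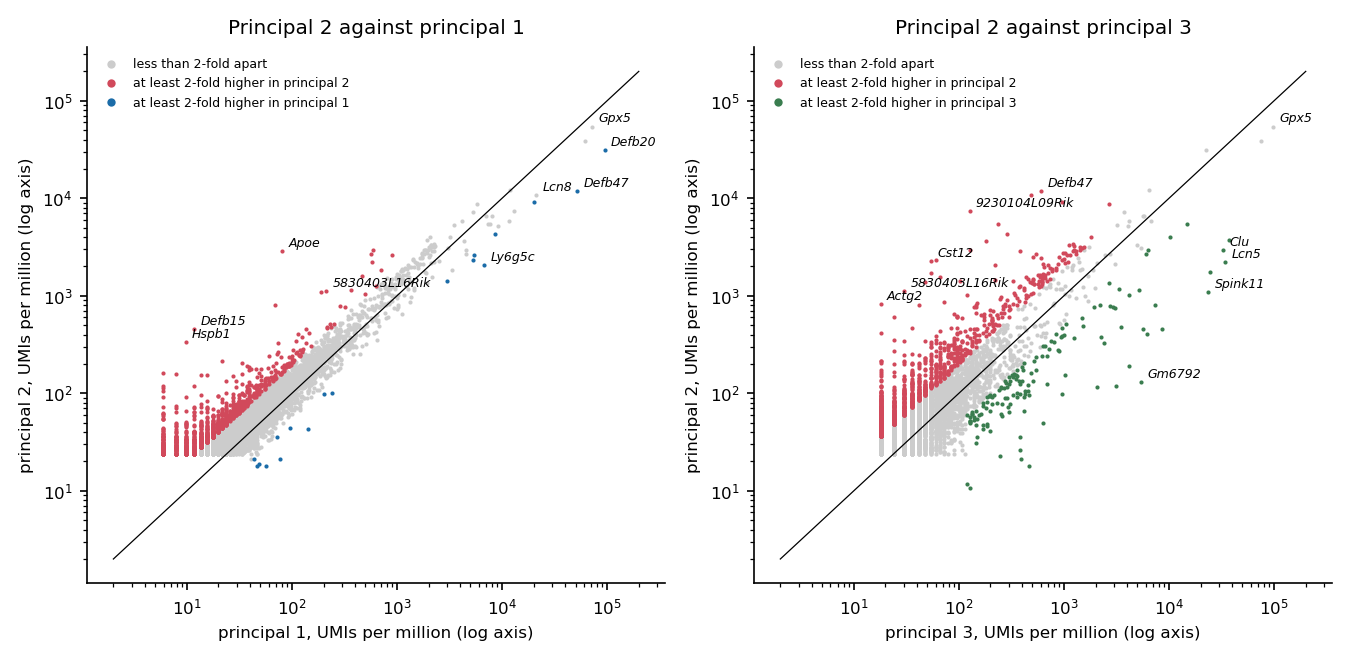
Each point is a gene with at least 20 UMIs in either population, plotted by its level in principal 1 (left) or principal 3 (right) against its level in principal 2, in UMIs per 1000000 UMIs on log axes with counts under 3 UMIs set to 3. Red points are at least 2-fold higher in principal 2 (988 and 1250 genes), blue points at least 2-fold higher in principal 1 (18) and green points at least 2-fold higher in principal 3 (141).

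Placed between principal 1 and principal 3, the population was intermediate and wide. Of 130 genes at least 4-fold higher in principal 1 than in principal 3, principal 2 lay between both levels for 82 and above both for 48. Of 89 genes at least 4-fold higher in principal 3, it lay between for 85, above for 3 and below for 1. The median log2 ratio of the 130 genes was -0.166 to principal 1 and 2.42 to principal 3, nearer principal 1. For the 89 genes the medians were 1.44 and -1.97. The rule for these 2 gene sets did not use the levels of principal 2. The cells were, however, assigned to the populations from these same counts. The place of principal 2 between the others was therefore partly built in and is a description. The genes on the side of principal 1 took 28.3% of the UMIs in principal 1, 13.3% in principal 2 and 3.14% in principal 3, and those on the side of principal 3 took 1.13%, 3.21% and 24.6%. Per cell thinned to 1000 UMIs, principal 2 had a median of 137 UMIs of the first set and a range of 14 to 400, against medians of 281 and 22 in principal 1 and 3. Its median for the second set was 23 UMIs (2 to 138), against 8 and 226. Among the 168 cells, 87 reached the lowest principal 1 cell (132 UMIs) on the first set, 13 reached the lowest principal 3 cell (70 UMIs) on the second, 0 did both, and 68 did neither. Across those cells the 2 sums had a Pearson correlation of -0.589, a description of cells from 1 library whose UMIs add to a fixed total.

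**Figure D3:**
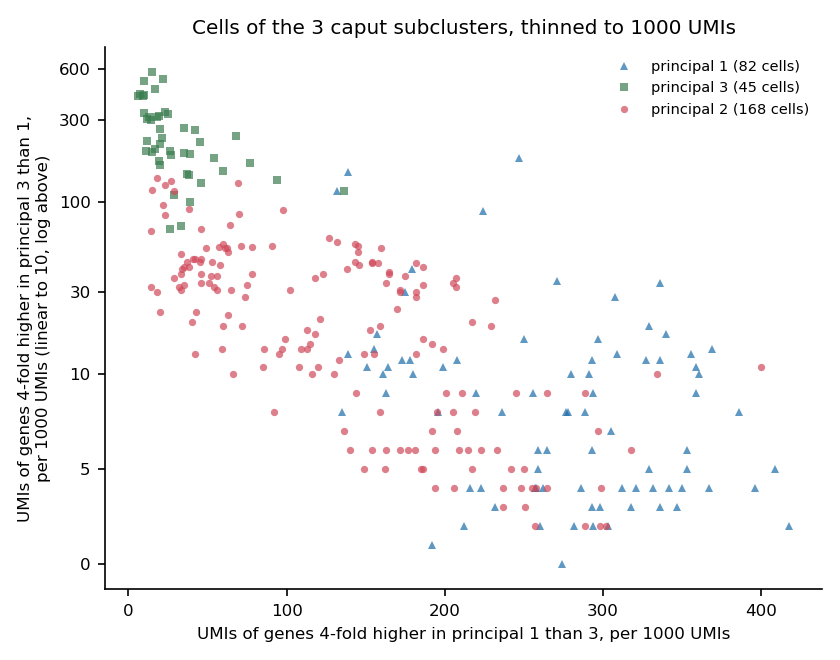
Cells of principal 1 (82), principal 2 (168) and principal 3 (45) thinned to 1000 UMIs, with the UMIs from 130 genes at least 4-fold higher in principal 1 than in principal 3 on the horizontal axis and from 89 genes with the opposite difference on the vertical axis, which is linear to 10 and logarithmic above. The red principal 2 cells run from 14 to 400 UMIs on the horizontal axis and overlap the ranges of both other populations.

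The markers of principal 2 ran along this range. The 168 cells were ordered by the difference of the 2 sums, computed without the gene in question, and divided into 3 groups of 56 cells. Lcn9, Defb48, Cst12, 5830403L16Rik and Lcn8 belong to the set of genes higher in principal 1 that ordered the cells. Their fall along the order was therefore partly built in, even with the gene in question left out, and is a description. Lcn9 had a UMI in 55 of the 56 cells nearest principal 1, in 30 in the middle and in 2 of the 56 nearest principal 3. Defb48 had 43, 27 and 1. Cst12 had 25, 7 and 0, and 5830403L16Rik had 27, 19 and 0. The group nearest principal 3 therefore nearly lacked the genes that name the population, although its cells were about as deep before thinning (median 3897 UMIs) as those nearest principal 1 (4037) and deeper than the middle ones (2633). Lcn8 went from 54 cells to 33 and 7, with 1414, 387 and 16 thinned UMIs.

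Other genes did not run in the same order. Defb47, although a principal 1 gene, was in 43 cells of the end nearest principal 1 with 666 UMIs and in 55 middle cells with 1389, and then in 13. Apoe, which belongs to the set of genes higher in principal 3, was in 9, 25 and 8 cells, with 403 of its 552 UMIs in the middle group. Cst12 and Apoe met in 1 cell, while 32 and 42 cells had each. Defb1 was in 5, 13 and 1 cells. The basal markers were in 6, 15 and 2 cells, most often in the middle group, and their part in the Apoe and Defb1 counts was not tested.

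Genes of principal 3 rose toward the other end. Clu, Lcn5, Spink11 and Defb15 belong to the set higher in principal 3, so that their rise was partly built in as well. Clu was in 9, 33 and 54 cells with 15, 107 and 382 UMIs, Lcn5 in 16, 25 and 31 cells, Spink11 in 4, 15 and 20, and Defb15 in 0, 2 and 12. Gpx5 (3214, 3066 and 2519 UMIs), Crip1 (669, 560 and 640) and Defb42 (315, 370 and 275) differed less across the 3 groups. Aldh1a7, a leading gene of the population, was in 2, 16 and 13 cells, so that it was sparse at the end where the named markers were most frequent. The lumicrine list, left out of its own ordering, decreased from 246 UMIs to 149 and 82. Its sum was higher in principal 1 (1929 UPM) than in principal 3 (974 UPM), so that its fall was partly built in as well. Ribosomal protein UMIs increased from 4805 to 6236 and 9060 toward the end nearest principal 3, although principal 3 as a population had the lowest ribosomal share of the 3, given below.

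**Figure D4:**
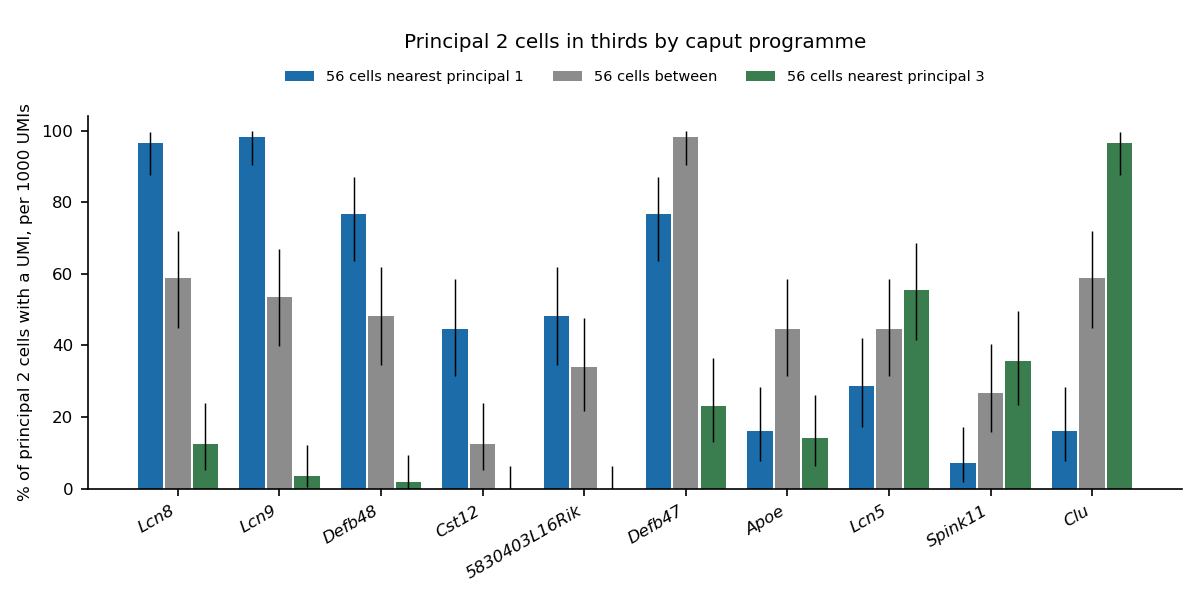
Share of principal 2 cells with a UMI of each of 10 genes, in 3 groups of 56 cells ordered from the end nearest principal 1 (blue) to the end nearest principal 3 (green), after thinning to 1000 UMIs. Bars start at 0 and carry 95% Clopper-Pearson intervals. Lcn9 goes from 55 cells to 2 and Clu from 9 to 54, while Apoe is most frequent in the middle. All 10 genes belong to the 2 sets that ordered the cells, and each was left out of its own ordering.

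Heterogeneity was largest for the same kind of genes. Among genes with at least 50 thinned UMIs, the ratio of variance to mean over the 168 cells was 29.1 for Cst12, 20.2 for Lcn8, 19.2 for Apoe, 15.3 for Defb47, 14.3 for 5830403L16Rik, 14.2 for Defb15, 12.1 for Spag11b and 11.8 for 9230104L09Rik, where counting error alone gives a value near 1. Mettl7a1 had 1.55, and its 10 richest cells held 20.9% of its UMIs.

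Lists of genes were read by the number of members at least 2-fold apart, beside the share over all genes tested. Ribosomal protein genes took 13.3% of the UMIs in principal 2, 9.25% in principal 1 and 6.05% in principal 3. Of 79 measured members, 61 were at least 2-fold higher than in principal 3, against 24.4% of all genes, and the median log2 difference was 1.24 against 0.53. Against principal 1, 2 of 79 passed, among them Rps2, against 19.3% of all genes. The median log2 ratio to principal 1 was 0.55. It was 0.50 over all genes with 20 UMIs in either population and 0.33 over the 2571 with 20 UMIs in both. Respiratory chain and ATP synthase genes took 1.93%, 1.70% and 1.05% in principal 2, 1 and 3, and 34 of 74 were at least 2-fold higher than in principal 3, against 24.4% of all genes, and 0 of 74 than in principal 1, against 19.3%, where the ratio of the sums fell from 1.14 to 0.862 without the 50 highest genes in the denominator. As a mean over cells, the ribosomal share of principal 2 was 9.97% and the respiratory share 1.51%.

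Genes of the lumicrine receptor and its ERK pathway were near the level of principal 1 and above that of principal 3. Ros1 is a receptor tyrosine kinase needed for the first stretch of the caput to form, Ovch2 a protease that acts downstream of it, and Etv4 and Etv5 are transcription factors of the PEA3 group that ERK signaling induces. Of 14 measured members, 11 were at least 2-fold higher in principal 2 than in principal 3 (24.4% of all genes), 1 than in principal 1 (19.3% of all genes), and 0 were lower. Ovch2 had 469 UPM in principal 2, 365 in principal 1 and 36.1 in principal 3. Etv5 had 84.1 UPM in principal 2 and 108 in principal 1 (ratio 0.780, 0.541 to 1.13) and 3 UMIs in principal 3. Ros1 had 60.4 UPM in principal 2, 66.6 in principal 1 and 3 UMIs in principal 3, and Dusp6, an ERK phosphatase and one of the 21 leading genes, had 78.2 and 33.3 UPM and 1 UMI in principal 3. The sum was 2355 UPM against 1929 and 974, highest in principal 2 among the 15 subclusters, but the ratio to principal 1 went from 1.22 to 0.925 under the denominator without the highest genes. Caput basal cells (3879 UPM) and caput clear cells (2767 UPM) had higher sums than principal 2.

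Of 20 immediate early and heat shock genes, 15 were at least 2-fold higher in principal 2 than in principal 3, against 24.4% of all genes, and 4 than in principal 1, near the 19.3% of all genes. Fos had 913 UPM against 498 and 289 in principal 1 and 3, Jun 2367 against 1417 and 992, and Junb 1265 against 629 and 722. Among transcription factors of the duct epithelium, 8 of 19 were at least 2-fold higher than in principal 3, against 24.4% of all genes, and 5 of 19 than in principal 1, near the 19.3% of all genes. Cebpb had 604 UPM in principal 2, 427 in principal 1 and 96.2 in principal 3.

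Fewer members of the secreted families peaked in principal 2 than in principal 1 or principal 3. Of 106 members of 7 families with at least 20 UMIs over principal cells, 4 were highest in principal 2 (Defb45, Defb48, Serpinb5 and Serpinb6a), against 16 in principal 1 and 15 in principal 3, and 7 were with every cell weighted equally. Of all genes with at least 20 UMIs in principal 2 itself, 14.6% were highest there. That minimum differs from the one used for the 106 members, so the 2 shares are not like for like. Defb45 had 5350 UPM in principal 2, 3454 in principal 1 and 3205 in principal 3. Beta-defensins summed to 107799 UPM against 236135 in principal 1 and 135610 in principal 3, and of 19 measured members 9 were at least 2-fold higher in principal 3 (2.76% of all genes) and 4 in principal 2 (24.4% of all genes). Against principal 1 the members divided, as 8 of 18 were at least 2-fold higher in principal 2 (19.3% of all genes) and 3 in principal 1 (0.352%), with a median log2 ratio of 0.63 although the sum was lower. Of 8 cystatins, 5 were at least 2-fold higher than in principal 3 (24.4% of all genes) and 2 (Cst8 and Cst11) lower than in principal 1 (0.352%), with sums of 14716 UPM against 27426 and 2604. Of 7 lipocalins, 3 (Lcn8, Lcn9 and Lcn10) were at least 2-fold higher than in principal 3 (24.4% of all genes) and 1 (Lcn5) lower (2.76%). Against principal 1, 2 were higher (19.3% of all genes) and 1 lower (0.352%). Lcn12 had 509 UPM against 229 in principal 1 and 914 in principal 3. Of 10 Kazal and Kunitz inhibitors, 6 were at least 2-fold lower than in principal 3 (2.76% of all genes) and 5 higher than in principal 1 (19.3%), and the sum was 5894 UPM against 60092 there and 4816 in principal 1, a ratio to principal 1 of 1.22 that turned to 0.927 without the highest genes in the denominator. WFDC inhibitors summed to 6546 UPM against 16575 in principal 3.

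Of 40 genes for protein folding and export in the endoplasmic reticulum, 0 were 2-fold apart from principal 1. Over all genes, 19.3% were higher and 0.352% lower than in principal 1. Against principal 3, 7 were at least 2-fold higher and 6 lower (24.4% and 2.76% of all genes). Hspa5, the main chaperone of the endoplasmic reticulum, had 3112 UPM in principal 2, 3029 in principal 1 and 5455 in principal 3. Of 30 peroxide and glutathione genes, 8 were at least 2-fold higher than in principal 1 (19.3% of all genes), among them Gpx3 at 49.8 against 9.80 UPM, and 9 were higher and 3 lower than in principal 3 (24.4% and 2.76%). Of 11 ion and water transport genes, 4 were at least 2-fold higher than in principal 1 (19.3% of all genes) and 2 than in principal 3 (24.4%). Their median log2 ratio to principal 1 was 0.83, against 0.50 over all genes. In lipid and retinoid handling, Aldh1a1 had 468 UPM in principal 2, 408 in principal 1 and 96.2 in principal 3, and Apoe made up 2900 of the summed 6293 UPM. Of 8 measured genes of the androgen and estrogen pathway, 1 was at least 2-fold higher than in principal 1 (19.3% of all genes). Against principal 3, 1 was higher and 1 lower (24.4% and 2.76% of all genes).

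**Figure D5:**
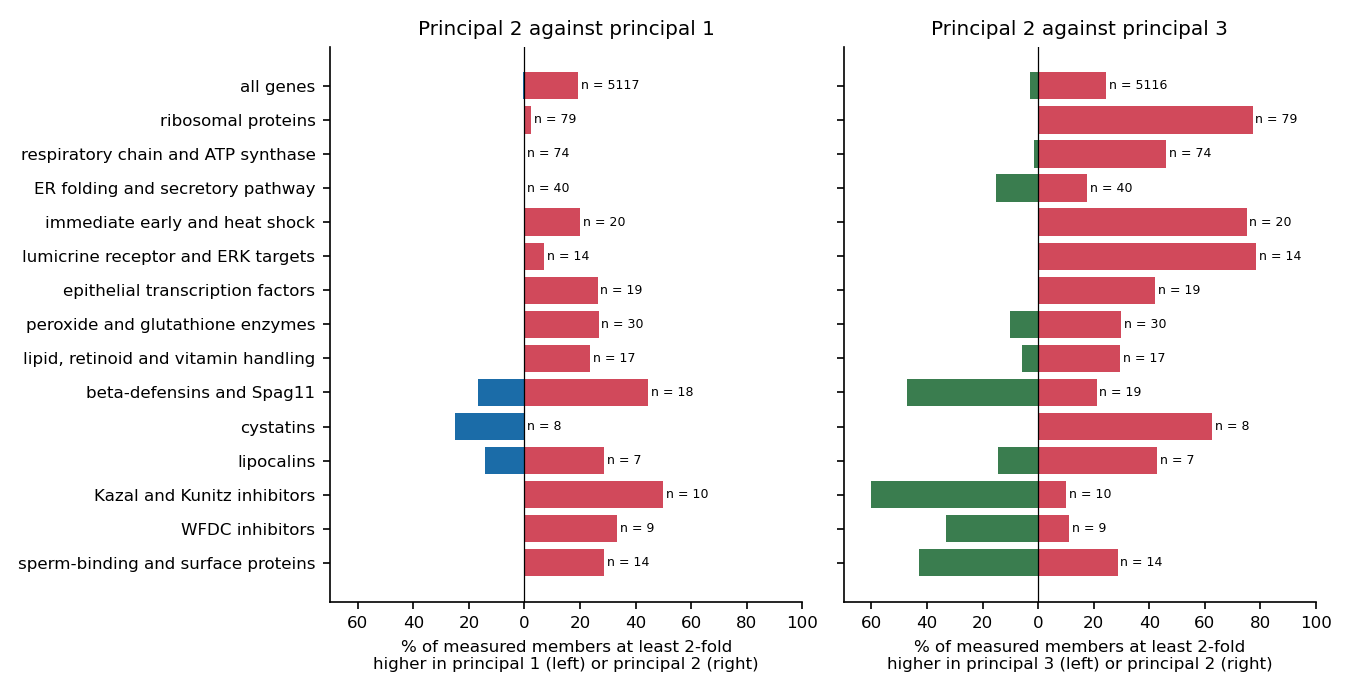
Share of the measured members of each list that were at least 2-fold higher in principal 2 (red, to the right) or at least 2-fold higher in principal 1 (blue) or principal 3 (green, to the left), with the number measured beside each bar and all genes on top. Ribosomal protein genes stand at 61 of 79 against principal 3 and 2 of 79 against principal 1.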

How the data were processed

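The deposited counts are whole UMIs per gene and cell (16892 genes, 8880 cells). Per the methods and the labels, the authors aligned reads to mm10 (HISAT2 2.0.4), ignored multiply mapped reads, counted UMIs on RefSeq genes, bounded the UMIs per cell (350 to 14999 in the cell table) and subtracted ambient RNA, so near-identical paralogs and low counts are uncertain. The deposited cell table gave library and subcluster, and subcluster numbers were matched by their numbers of cells.

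UMIs were summed per population, with exact Poisson, conditional binomial and Clopper-Pearson intervals at 95%. A called gene had at least 20 UMIs in the higher population and a ratio of at least 2, with 3 UMIs as the floor. Cells were thinned to 1000 UMIs. Doublets were called by simulated doublets and nearest neighbors (0.8% per 1000 cells, 16 in the caput, 7 in principal 2) and kept. Caput basal cells were the annotated basal populations other than basal macrophages.

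Genes named are the given markers, the 15 with the largest lead, the 10 largest ratios per direction and pair, the 15 highest, the members of lists and the 8 most variable, the last groups partly as ranges. Groups of cells along the range, joint detection and their genes were chosen after values were seen, as was the naming of Igfbp7 and the genes just below 2-fold. Members, lists and genes were chosen with earlier results of these data known. The rules were tested on simulated data with known folds. With 1 library per region, no test was run. Alternatives comprised 86 planned settings and 13 added ones. Coordinates are GENCODE vM21 (GRCm38, the assembly of mm10). Software was matplotlib 3.10.9, scikit-learn 1.9.0, scipy 1.17.1, numpy 2.4.6 and pandas 2.3.3 under Python 3.11.15. Bulk RNA-seq and other populations were not analysed here.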

Additional observations from a re-analysis of the deposited data

How the results depend on the processing

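No paired analysis was possible because each region has 1 library and the labels give no shared replicate numbers, and leaving out a replicate was not possible for the same reason. The number of genes leading in principal 2, 21, was 46 with every cell weighted equally, 4 without the 50 highest genes in the denominator, 5 with the deposited size factors, 85 at 1.5-fold, 2 at 4-fold and 89 among caput populations alone. In the same order of scalings, the 988 genes higher than in principal 1 were 1811, 453 and 529, and the 18 lower were 68, 74 and 48. The first became 2235 at 1.5-fold, 195 at 4-fold, 1848 at a minimum of 10 UMIs, 340 at 50 UMIs and 519 with centered ratios, and the second 81, 1, 47, 11 and 50. The 1250 genes higher than in principal 3 were 498 without the highest genes, 778 with size factors, 2404 and 162 at 1.5- and 4-fold, 797 at 50 UMIs and 514 when drawn down. The 141 lower were 229 without the highest genes, 217 and 44 at 1.5- and 4-fold, and 231 and 89 at 10 and 50 UMIs. The Lcn9 share of 51.8% was 41.3% at 500 UMIs and 38.5% unthinned, and the Defb48 share of 42.3% was 30.3% and 29.5%. The ribosomal share of 13.3% was 13.9% in cells with at least 1000 UMIs, 9.97% as a mean of cells, 16.9% without the highest genes (which here left the numerator too), 13.6% with size factors and 13.4% without doublets. The respiratory share of 1.93% was 2.01%, 1.51%, 2.66% and 1.98% under the first 4 of these. Family members highest in principal 2 went from 4 to 7 with every cell weighted equally. Serpinb6a reversed, from 2.09 times principal 3 to 0.947, under equal weights. The cause of these differences was not tested. Among 375 gene values, 279 stayed, 95 moved and 1 reversed, where only ratios past 2-fold were judged for reversal. Of those within 2-fold, Cst12 went from 0.912 to 1.46 times principal 1 under equal weights, and Mettl7a1 from 1.05 to 0.714 times principal 3 and from 1.02 to 0.769 times principal 1, the latter without the highest genes.

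Intervals cover counting error alone, and no difference between animals can be read from 1 pool. Principal 3, with 166278 UMIs, set the depth of that comparison: its floor of 18.0 UPM hides genes below it. The populations were drawn from the same counts that describe them, and 185 of 353 cells were too shallow for the comparisons of cells.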
